A study of Mus musculus with 6 samples.

Results

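The genes flanking Id1 on mouse chromosome 2 were examined in leukemia cells after deletion of Id1 and after an Id1 inhibitor. The 9 genes, Rem1, Hm13, Cox4i2, Tpx2, Mylk2, Dusp15, Ttll9, Pdrg1 and Tm9sf4, were taken by name as neighbours of Id1, out of 21881 genes listed in each table, and all 9 lie within 1 Mb of it in mm9 by the positions the tables give. Hm13 is listed there under its older symbol H13. They are part of 52 genes that overlap the window of 1 Mb to either side of Id1, which was counted as a whole with Id1 left out.

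RNA sequencing was done on 6 samples of one kind of mouse leukemia cell of strain C57/B6X129SV. Every group, the control included, carried the AE9a leukemia oncogene (a truncated AML1-ETO fusion protein), Id1 fl/fl alleles (both copies of Id1 flanked by loxP sites) and CreER, a Cre recombinase that becomes active when 4-hydroxytamoxifen (4-OHT) binds it. The 3 groups of 2 samples were controls, cells given 0.1 µM 4-OHT for 48 h, and cells given CBD, which the submitters call an Id1 inhibitor, at 15 µM for 16 h. The labels name no promoter for CreER, no clone number, no vehicle for the control and no 4-OHT group without loxP sites, so an effect of 4-OHT or of active Cre and an effect of losing Id1 cannot be told apart. They do not say whether the samples were separate cultures, and the deposited p-values then measure at most the spread between these samples. Which control samples entered each test is not stated, so a spread between controls may not be part of it.

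The authors deposited 2 tables, 1 per treatment, each with 1 FPKM value for its control and 1 for the treated group (FPKM is the fragment number scaled to transcript length and to all mapped fragments, so levels of different genes can be compared on it). All 4 FPKM columns are given here for each gene. The sample descriptions tie 1 of the 2 control samples to each table, and which libraries stand behind the control columns is not stated further. No value carries a replicate error, because the tables hold none, and the depth is unknown. A gene is said to have risen or fallen when the authors' deposited q was under 0.05. Log2 folds compare treated with control after 0.1 FPKM was added to each, which understates the change of genes near 0.

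The labelled cell type was checked first. Of 12 leukemia and haematopoietic markers, 9 were at 1 FPKM or more in all 4 columns, with the receptor gene Kit between 75.0 and 95.6 FPKM, while Ptprc, Itgam and Mpo stayed under 0.5 FPKM in all 4. Brain markers stood apart in the CBD column. In the authors' deposited table for CBD, 11 of 12 tested neuron markers rose, with a summed level of 21.5 FPKM in the control and 195 with CBD. Of the oligodendrocyte markers 9 of 12 rose (summed level 49.1 and 244 FPKM), and of the astrocyte markers 7 of 8 (45.8 and 141 FPKM). The oligodendrocyte markers Mog and Opalin, listed at 0 in the other 3 columns, were not called with CBD and are not among the 9. With 4-OHT none of the 2 tested neuron markers passed the threshold and the summed level was 9.77 and 9.12 FPKM. Of 4 tested astrocyte markers Aldoc rose (3.07 to 15.8 FPKM) and Gfap fell (2.23 to 1.16) with 4-OHT, with a summed level of 6.49 and 18.3 FPKM, and of 2 tested oligodendrocyte markers Mbp fell (32.0 to 28.6). In the CBD table's control Aldoc stood at 43.2 FPKM and Gfap at 0.703 FPKM. The directions of Aldoc and Gfap with 4-OHT therefore turned with the choice of control column, and that of Mbp (38.6 FPKM there) did not. What part these transcripts have in any rise with CBD below was not tested, and a change in the share of some cells cannot be told apart from a change in RNA per cell in samples of this kind.

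Id1 encodes a helix-loop-helix protein without a DNA-binding region that pairs with E proteins and keeps them off their E box sites. Its neighbours share its place on the chromosome, not its function. Among them are a protease of the endoplasmic reticulum membrane (Hm13), a spindle assembly factor (Tpx2), a small subunit linked to the prefoldin chaperones (Pdrg1), a membrane protein of the endosomal and Golgi system (Tm9sf4), and 5 genes known mainly from other tissues. Removing a stretch of a chromosome with Cre can in principle touch genes nearby, and a drug response need not, so the neighbours serve as a local comparison for the values at Id1.

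Id1 itself spans chr2:152562010-152563146. With 4-OHT its level was 15.4 FPKM in the control and 0.741 FPKM in the treated group, a log2 fold of -4.21, or 18.5-fold lower, and the authors' deposited table lists its q as 0. Of 9881 tested genes with at least 1 FPKM in the control and a value above 0 with 4-OHT, none had a lower fold, and 15 further genes were listed at 0 with 4-OHT. With CBD Id1 was at 34.2 FPKM in the control and 11.9 FPKM in the treated group, a log2 fold of -1.51. The authors' deposited table gives it p = 0.0458 and q = 0.133, so it was not called there. Of 9816 genes of the same kind 347 had a lower fold with CBD. The control columns differed at this gene by 2.21-fold, and against the other table's control the log2 fold was -5.35 with 4-OHT and -0.37 with CBD.

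The members fall into 2 classes by level. Hm13, Tpx2, Pdrg1 and Tm9sf4 were at 1 FPKM or more in all 4 columns, and the lowest value among them was 15.4 FPKM. Rem1, Cox4i2, Mylk2, Dusp15 and Ttll9 were under 0.5 FPKM in both control columns and with 4-OHT, and of these 5 only Dusp15 passed 1 FPKM anywhere, with CBD. For comparison, 22 of the 52 genes of the window were at 1 FPKM or more in all 4 columns and 26 were under 1 FPKM in all 4. Of the 9 members, 7 had their highest value in the CBD column. The share of all genes highest there was not counted, so this number cannot be read as particular to the members. Over all tested genes the median log2 fold was 0.29 with CBD and 0.05 with 4-OHT.

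**Figure D1:**
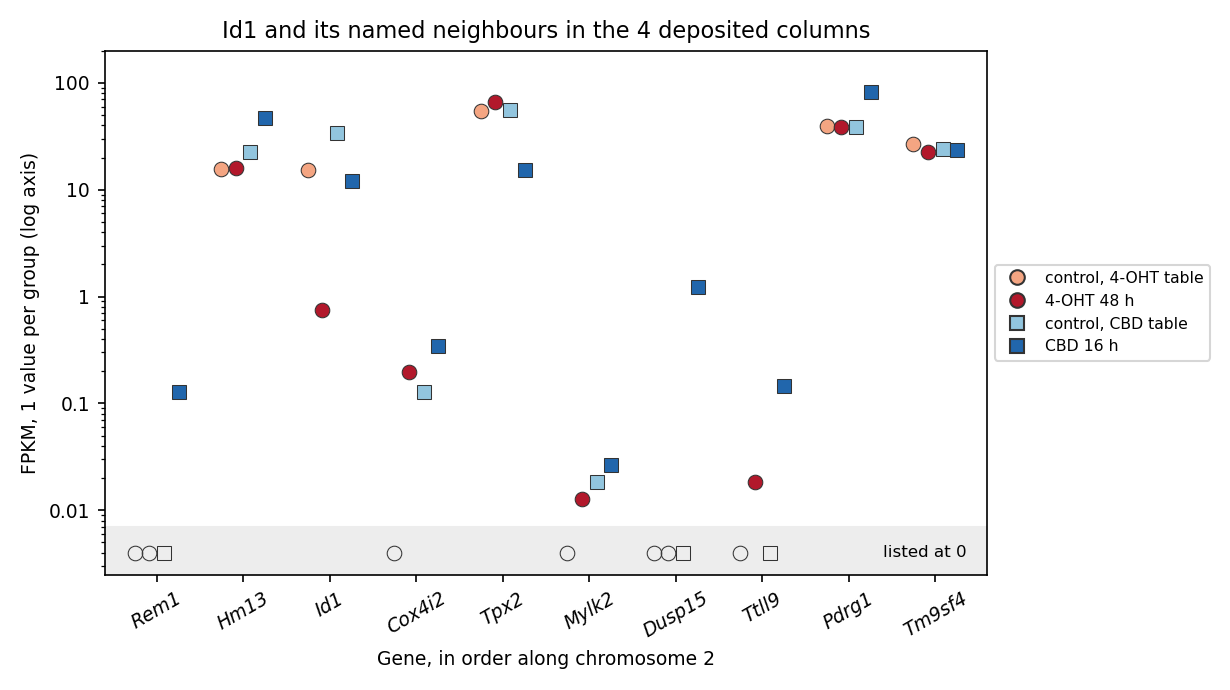
FPKM of Id1 and its 9 neighbours in each of the 4 deposited columns, on a log vertical axis with values of 0 set apart at the bottom. Genes run along the horizontal axis in chromosome order. Each point is the authors' single value for a group and has no error bar. Id1 with 4-OHT sits at 0.741 FPKM, far below its other 3 points. The points of Hm13, Tpx2, Pdrg1 and Tm9sf4 with 4-OHT lie near the height of their controls. Hm13 and Pdrg1 lie higher with CBD, and Tpx2 lower.

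With 4-OHT none of the expressed neighbours came near the fall of Id1. Of the 9 members 4 were tested by the authors' deposited table, of which Tpx2 rose and Tm9sf4 fell, against 44.1% of all tested genes called, 27.2% higher and 16.9% lower. The folds of these 4 ran from -0.24 to 0.28 on the log2 scale with a median of -0.0023, beside a median of 0.05 over all tested genes. A share of 2 in 4 called is near that background, and 4 genes are few.

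The nearest member before Id1 is Hm13, which encodes signal peptide peptidase, an aspartyl protease that cuts leftover signal peptides inside the membrane of the endoplasmic reticulum. It spans chr2:152495197-152534404 and ends 27.6 kb before Id1. Its level was 15.8 FPKM in the control and 16.1 FPKM with 4-OHT, a log2 fold of 0.03, or -0.47 from the CBD table's control. The authors' deposited table gives it p = 0.616 and q = 0.717. The nearest member after Id1 is Cox4i2 (chr2:152579909-152590773), 16.8 kb away, a lung isoform of subunit 4 of cytochrome c oxidase. It was listed at 0 in that control and at 0.198 FPKM with 4-OHT, and was not tested. Both values leave it close to silent, so the gene closest to Id1 cannot show a loss in these cells.

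Between Cox4i2 and Tpx2 lies Bcl2l1, which encodes the survival protein BCL-XL and is no member. It rose from 19.9 to 28.8 FPKM with 4-OHT, a log2 fold of 0.53, with q = 7.66e-14 in the authors' deposited table. In the CBD table's control Bcl2l1 stood at 31.0 FPKM, and the 4-OHT fold from that value was -0.11. Its direction with 4-OHT therefore turned with the choice of control column.

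Tpx2 (chr2:152673700-152721057), 111 kb from Id1, encodes a microtubule-binding protein that activates the kinase Aurora A at the spindle. It rose from 54.4 to 65.8 FPKM with 4-OHT, 1.21-fold, with its q given as 0 by the authors' deposited table. The log2 fold was 0.28, or 0.23 from the CBD table's control. The control values, 54.4 and 56.3 FPKM, differed far less than either did from the 4-OHT value.

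Pdrg1 (chr2:152834626-152841119), 271 kb from Id1, encodes a small prefoldin-like protein found with the URI chaperone complex and known as induced by DNA damage. It was at 39.8 FPKM in the control and 38.8 FPKM with 4-OHT, and the authors' deposited table gives p = 0.603 and q = 0.706. Tm9sf4 (chr2:152987037-153036199), 424 kb from Id1, encodes a multipass membrane protein of the nonaspanin family. It fell from 26.7 to 22.5 FPKM with 4-OHT, by 15.4%, with q = 0.000334 in the authors' deposited table. Its value in the other control column was 24.2 FPKM, between these 2, and the log2 fold against it was -0.10 in place of -0.24. These differences are small beside the 18.5-fold difference at Id1.

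The other 4 members were at the floor of the tables. Rem1 (chr2:152452744-152460927, 101 kb before Id1), a small GTPase of the RGK family that inhibits voltage-gated calcium channels, was listed at 0 in the control and with 4-OHT. Dusp15 (chr2:152766731-152777318), an atypical dual specificity phosphatase known from oligodendrocytes, was also listed at 0 in both. Mylk2 (chr2:152737088-152748801), the myosin light chain kinase of skeletal muscle, was at 0 and 0.0126 FPKM. Ttll9 (chr2:152788221-152834218), of the tubulin tyrosine ligase family whose members modify tubulin in cilia and flagella, was at 0 and 0.0185 FPKM. None of the 4 was tested with 4-OHT, and no loss could have been seen in them.

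Expressed genes of the wider window also lay close to their controls. Of the 22 genes at 1 FPKM or more in all 4 columns, 11 were called with 4-OHT in the authors' deposited table, 8 higher and 3 lower, beside 47.0% of 9498 tested genes of the same kind over the genome. Their log2 folds ran from -0.75 for Srxn1, which encodes the antioxidant enzyme sulfiredoxin, to 0.53 for Bcl2l1. Of the 22, 21 (95.5%) changed by less than 1.5-fold, near the 93.6% of the 9498 genes that did, so this closeness is not particular to the locus. Srxn1, 625 kb before Id1, fell from 14.2 to 8.43 FPKM (a q of 0 is listed in the authors' deposited table). None of the 22 had a fold as low as that of Id1, and none of the 9498 genes did. Id1, at 0.741 FPKM with 4-OHT, does not itself pass this filter on level. A gene that fell as far from a similar level would have been left out, so this count cannot show that no such gene exists. Without the filter, the lowest fold among the 26 tested genes of the window was -2.19.

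The calls were also counted by distance from Id1. Of the tested genes, 2 rose and none fell of 6 within 250 kb, 3 rose and 1 fell of 9 between 250 kb and 0.5 Mb, and 4 rose and 2 fell of 11 beyond that. Over all 26 tested genes of the window 9 rose and 3 fell with 4-OHT by the authors' deposited table, or 46.2%. This is near the 44.1% of all tested genes called (27.2% higher and 16.9% lower), and each range of distance holds few genes. Besides those named above, Fam110a (5.44 to 7.19 FPKM), Rbck1 (41.0 to 49.4), Trib3 (32.5 to 39.5), Tspyl3 (16.1 to 18.5), Kif3b (8.94 to 10.4) and 8430427H17Rik (2.67 to 3.10) rose, but from the CBD table's control the folds of Fam110a, Rbck1, Trib3 and Kif3b were negative (-0.018, -0.74, -2.72 and -0.10 on the log2 scale). Pofut1, an enzyme that puts fucose on Notch receptors, fell from 13.2 to 11.4 FPKM. Tcf15, listed at 0 in the control and at 0.394 FPKM with 4-OHT, rose by the table's q but stood at 1.43 FPKM in the other control, above its 4-OHT value. The lowest fold of any tested gene in the window, -2.19, belonged to the beta-defensin gene Defb25, which was not called.

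**Figure D2:**
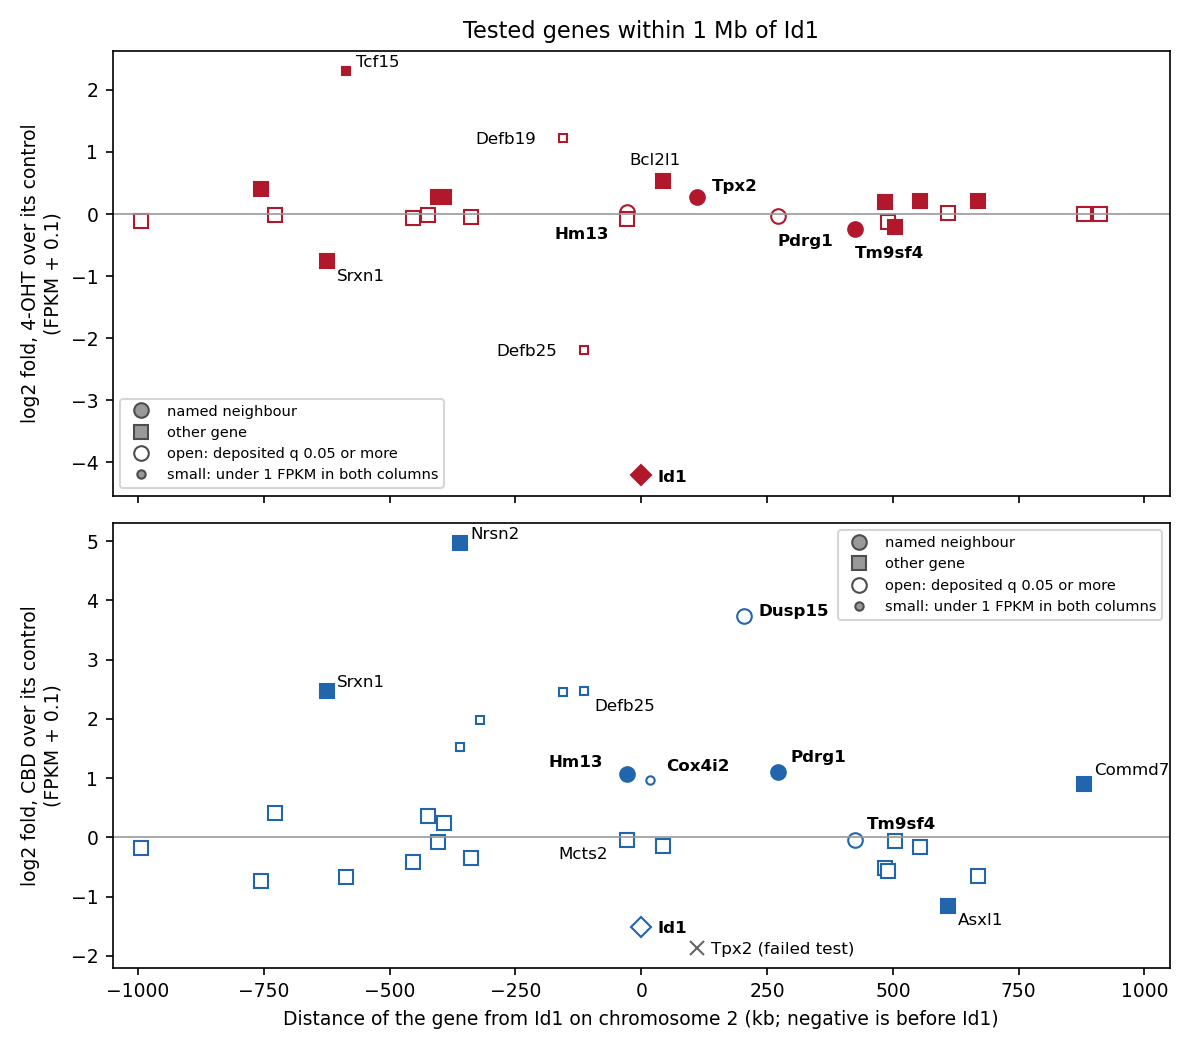
Log2 fold of treated over control for tested genes within 1 Mb of Id1, against distance from Id1 in kb, with 4-OHT and CBD in separate panels; each point is 1 gene (circles for named neighbours, squares for others, small where under 1 FPKM in both columns), filled where called at the authors' deposited q, and the cross is Tpx2 with a failed test. With 4-OHT Id1 lies at -4.21 and the expressed neighbours lie between -0.75 and 0.53, and with CBD the folds are spread more widely on both sides of Id1.

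With CBD the pattern at the members was another: Hm13 and Pdrg1 were called and each roughly doubled. Id1 was listed 2.84-fold lower than its own control but was not called, with q = 0.133 in the authors' deposited table. Of the 9 members 5 were tested by the authors' deposited table, 2 rose and none fell, against 26.2% of all tested genes called, 18.4% higher and 7.74% lower. The median log2 fold of the 5 was 1.08, beside 0.29 over all tested genes. The 5 include Cox4i2 and Dusp15, which were near the floor and not called, and leave out Tpx2, whose test failed. The 4 expressed members went different ways, with log2 folds of 1.08 for Hm13, 1.09 for Pdrg1, -0.04 for Tm9sf4 and -1.86 for Tpx2. Over the whole window of 29 tested genes 5 rose and 1 fell, or 20.7%, with a median of -0.04, which became 0.49 with the other table's control.

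Hm13 rose from 22.4 to 47.4 FPKM with CBD, 2.11-fold, with q = 3.04e-07 in the authors' deposited table. The CBD value stood above the other 3 columns, which ran from 15.8 to 22.4 FPKM, and the log2 fold was 1.08 against its own control and 1.58 against the other. Mcts2, a retrogene (an intronless copy of a gene made from its RNA) that lies inside Hm13 and is a known imprinted locus, was not called. Mcts2 was at 20.97 FPKM in the control and 20.2 FPKM with CBD, and the authors' deposited table gives p = 0.938 and q = 0.967. The tables give Hm13 and Mcts2 the same span, and reads of the pair may have been divided between them by the authors' program. In the later GENCODE vM21 annotation both lie on the forward strand, so strand would not separate them.

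The promoters of the pair are shown because the 2 genes share a span and only Hm13 was called; the difference between them was not tested. Each is the 250 bases before the RefSeq start, on the gene's forward strand in GRCm38.p6, a later build than the mm9 of the tables, and RefSeq promoters matched 5 of the 9 members. Capitals mark matches on either strand to an E box (CANNTG, within which E proteins favour the core CAGCTG as well as the core CACCTG, which reads as the core CAGGTG on the opposite strand), a CCAAT box (CCAAT), a cell cycle homology element (the letters TTTGAA or the letters TTTAAA) and a CRE core (TGACG). The Hm13 promoter lies at chr2:152669211-152669460 and the Mcts2 promoter at chr2:152686898-152687147.
Hm13: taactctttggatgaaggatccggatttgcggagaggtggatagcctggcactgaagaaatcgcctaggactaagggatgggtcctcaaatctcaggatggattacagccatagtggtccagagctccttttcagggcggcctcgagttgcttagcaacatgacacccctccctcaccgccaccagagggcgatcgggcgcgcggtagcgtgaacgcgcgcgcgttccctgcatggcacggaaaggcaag
Mcts2: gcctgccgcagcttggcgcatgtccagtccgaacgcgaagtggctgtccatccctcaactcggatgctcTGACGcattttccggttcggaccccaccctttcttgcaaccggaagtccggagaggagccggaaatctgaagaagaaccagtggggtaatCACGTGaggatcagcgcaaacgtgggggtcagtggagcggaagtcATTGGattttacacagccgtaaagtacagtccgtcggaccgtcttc
None of these letters occurs in the Hm13 window. The Mcts2 window holds CACGTG 91 bases before the start, a reversed CCAAT box 46 bases before it and TGACG 181 bases before it. Of 32851 RefSeq promoters of the same length 66.2% hold an E box, 33.8% a CCAAT box and 17.8% TGACG, so single matches are common.

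Pdrg1 rose from 38.8 to 82.9 FPKM with CBD, 2.14-fold, with q = 0.00044 in the authors' deposited table. Its control columns and its 4-OHT value lay between 38.8 and 39.8 FPKM, and CBD alone stood apart. Pdrg1 converges on Ttll9, whose 3' end lies 407 bases from its own, and the strand of the libraries is not stated in the sources used here. Ttll9 was at 0 in the CBD table's control and at 0.146 FPKM with CBD. Tm9sf4 was at 24.2 and 23.6 FPKM, a log2 fold of -0.04. The authors' deposited table gives p = 0.892 and q = 0.942. The member that fell with 4-OHT was not called with CBD, and the 2 that rose with CBD were not called with 4-OHT. Of all tested genes 44.1% were called with 4-OHT and 26.2% with CBD, and so few members cannot show whether calls overlap. The difference between the treatments was not tested.

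The promoters of Pdrg1 (chr2:153015384-153015633, read on the reverse strand) and Tm9sf4 (chr2:153161051-153161300, forward strand) are shown beside these values with the same marks, since these are the other 2 members called in a comparison for which RefSeq gave a promoter.
Pdrg1: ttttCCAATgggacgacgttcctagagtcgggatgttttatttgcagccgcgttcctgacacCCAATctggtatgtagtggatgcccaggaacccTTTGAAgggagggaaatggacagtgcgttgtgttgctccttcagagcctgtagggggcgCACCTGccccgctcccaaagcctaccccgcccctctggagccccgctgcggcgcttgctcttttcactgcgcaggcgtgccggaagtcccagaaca
Tm9sf4: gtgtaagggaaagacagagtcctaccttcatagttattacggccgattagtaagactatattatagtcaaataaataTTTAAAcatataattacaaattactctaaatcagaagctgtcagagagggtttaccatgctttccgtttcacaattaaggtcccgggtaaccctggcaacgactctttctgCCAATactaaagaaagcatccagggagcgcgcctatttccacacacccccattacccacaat
The Pdrg1 window holds CACCTG 96 bases before the start, CCAAT 188 and 246 bases before it, and TTTGAA 155 bases before it. The Tm9sf4 window holds CCAAT 62 bases and TTTAAA 173 bases before the start and no E box. An E box core of the kind E proteins favour occurs in 27.7% of all promoters and the cell cycle element in 25.2%.

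Fold changes with CBD moved with transcript length over the genome. Over 5356 genes with both controls at 10 FPKM or above, the median log2 fold was 0.50 in the shortest of 20 length bins and -0.76 in the longest, against 0.08 and -0.08 with 4-OHT. Subtracting this trend changed the fold of the short Pdrg1 transcript (1299 bases) from 1.09 to 0.79 and that of Hm13 (5204 bases) from 1.08 to 1.36. Both stayed positive.

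Tpx2 gave no test with CBD. The authors' deposited table marks the gene as failed, and lists it at 56.3 FPKM in the control and 15.4 FPKM with CBD, a log2 fold of -1.86. Its CBD value was the lowest of the 4 columns, which otherwise ran from 54.4 to 65.8 FPKM. Subtracting the length trend gave -1.68. The gene is not counted as changed.

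The partners of TPX2 were tested where Tpx2 was not. Of 27 genes for spindle assembly and Aurora A partners, Tpx2 left out, 26 were tested with CBD, and 18 fell and none rose by the authors' deposited table, with a median log2 fold of -1.17. Of all tested genes 7.74% fell. Cenpe, a kinetochore motor, fell from 9.10 to 0.366 FPKM, Kif15, a spindle motor, from 20.4 to 3.48 FPKM, and Numa1, a spindle pole protein, from 23.7 to 4.44 FPKM. Aurka, the kinase that TPX2 activates, fell from 64.9 to 28.3 FPKM with q = 0.0013 in that table. With 4-OHT 12 of the 27 rose and 4 fell, with a median of 0.08, and Haus5 (16.6 to 24.5 FPKM), Nusap1 (30.6 to 42.7) and Kif15 (17.1 to 23.3) rose most. Of all tested genes 27.2% rose and 16.9% fell with 4-OHT. The 4 that fell stood above the CBD table's control with 4-OHT, so their direction turned with the choice of control column. The 12 that rose kept theirs.

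Of 13 tested genes for intramembrane proteases and signal peptidase subunits, Hm13 left out, 3 rose and none fell with CBD, with a median of 0.42, near the 18.4% of all tested genes that rose. The 3 encode signal peptidase subunits: Spcs1 rose from 85.0 to 180 FPKM (a log2 fold of 1.08, but 0.32 from the other table's control), Spcs2 from 76.7 to 139 FPKM and Sec11c from 167 to 269 FPKM. With 4-OHT 2 rose and 3 fell of these 13, among them Rhbdf1 (2.57 to 3.77 FPKM), 3110056O03Rik, the table's name for Sppl2b, a close relative of Hm13 (13.9 to 10.6), and Rnf139 (29.1 to 24.9). Sppl2b changed sign with the CBD table's control (0.15 on the log2 scale). Of 13 tested prefoldin and URI complex genes, Pdrg1 left out, Pfdn5 rose with CBD from 282 to 478 FPKM and no other was called, with a median of 0.20. With 4-OHT Pfdn5 rose from 216 to 244 FPKM and Pfdn2 fell from 138 to 124 FPKM, and both changed sign when the CBD table's control was used (-0.21 and 0.53 on the log2 scale). The 4-OHT counts of both lists stand beside 27.2% of all tested genes higher and 16.9% lower.

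Of the 3 relatives of Tm9sf4, 2 fell with 4-OHT, where 16.9% of all tested genes fell, and 3 genes are few. Tm9sf2 fell from 68.0 to 56.3 FPKM (q = 1.58e-05) and Tm9sf1 from 38.1 to 33.7 FPKM (q = 0.0139) by the authors' deposited table, where Tm9sf3 was at 50.4 and 47.0 FPKM (q = 0.140). From the CBD table's control the 4-OHT folds of Tm9sf2 and Tm9sf1 were of the opposite sign (0.59 and 0.73 on the log2 scale), unlike that of Tm9sf4. These genes lie on other chromosomes. With CBD none of the 3 was called.

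**Figure D3:**
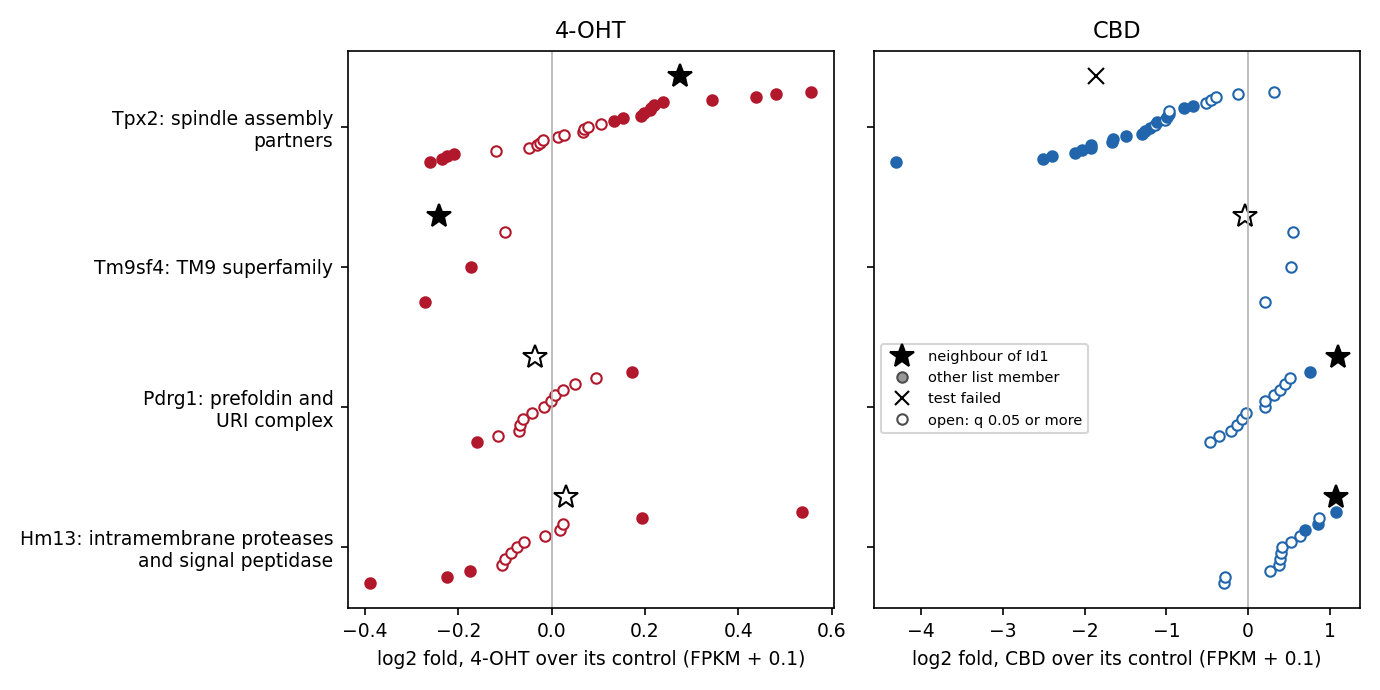
Log2 fold of treated over control for Tpx2, Tm9sf4, Pdrg1 and Hm13 (stars) and their related genes (circles), with 4-OHT and CBD in separate panels on different axes; each mark is 1 gene, filled where the authors' deposited q was under 0.05, and the cross is Tpx2, whose CBD test failed. The circles of the spindle genes lie mostly below 0 with CBD, with a median of -1.17, and close to 0 with 4-OHT, with a median of 0.08.

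The 5 low members were higher in the CBD column than in any other. Dusp15 reached 1.24 FPKM with CBD and was listed at 0 in the 3 remaining columns. The authors' deposited table gives p = 0.0404 and q = 0.121, so it was not called. Cox4i2 was at 0.127 and 0.346 FPKM with q = 0.584. Rem1 was listed at 0 and 0.127 FPKM and Mylk2 at 0.0183 and 0.0264 FPKM, both untested. Of the 21 genes of the window listed at 0 in the CBD table's control 12, or 57.1%, were above 0 with CBD, and over all genes 37.9% of 6390 were. With 4-OHT it was 4 of 21, and 13.5% of 6902 over all genes.

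These low values stood beside the brain markers given above and beside the sums of markers of other tissues. The summed level of 9 pericyte and endothelial markers, cells that can hold Cox4i2, was 1.39 FPKM in the CBD table's control and 11.04 FPKM with CBD, with 1 of 7 tested rising. For skeletal muscle, the tissue of Mylk2, it was 40.4 and 36.4 FPKM with none of 3 tested called, and for testis and cilia, where Ttll9 acts, 4.53 and 4.01 FPKM with 1 of 6 rising. The sum of 8 heart muscle markers, the tissue where Rem1 is best known, was 574 and 507 FPKM, nearly all of it Tnni3, with 1 of 3 tested rising. For monocytes and macrophages it was 2.86 and 18.3 FPKM, with 2 of 7 rising. The part of other cells in the values of the low members was not tested.

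The relatives of the low members are given in the same way, against the shares of all tested genes called, 44.1% with 4-OHT and 26.2% with CBD. With CBD 2 of 15 tested cytochrome c oxidase genes rose, Cox6a2 from 12.1 to 56.2 FPKM and Cox7c from 279 to 455 FPKM, and none fell. With 4-OHT 3 of 14 rose and 1 fell, and Cox6a2 was the one that fell, from 1.93 to 0.531 FPKM, while Cox7a2l (115 to 141 FPKM) and Cox6b1 (610 to 689) were among those that rose. The log2 folds of Cox6a2, 2.21 with CBD and -1.68 with 4-OHT, were 4.80 and -4.27 from the other table's control. The main isoform of the subunit that Cox4i2 replaces, Cox4i1, rose from 586 to 656 FPKM with 4-OHT and was at 618 and 901 FPKM with CBD (q = 0.145 in the authors' deposited table). Of the tubulin ligases Ttll7 (0.0113 to 3.78 FPKM) and Ttll11 (0.0174 to 0.773) rose with CBD, out of 8 tested. With 4-OHT 2 of 6 rose and 1 fell: Ttll3 (1.12 to 1.69), Ttll5 (7.20 to 8.36) and Ttll12 (111 to 88.3). Of the atypical phosphatases Dusp18 rose with CBD (0.0180 to 0.298 FPKM, 1 of 11 tested), and with 4-OHT 2 of 8 rose, Dusp3 (12.3 to 18.6) and Dusp11 (24.4 to 27.4), and 2 fell, Styx (19.0 to 16.1) and Dusp12 (18.5 to 16.1). Of the RGK genes Gem rose (0.118 to 0.988 FPKM) and Rem2 fell (5.93 to 4.57) with 4-OHT and none of 3 was called with CBD. The only myosin light chain kinase tested, Mylk3, was called in neither. Of these calls with 4-OHT, those of Cox7a2l, Ttll12, Gem, Rem2, Styx, Dusp12 and Dusp11 changed sign when the CBD table's control was used.

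Among the other genes of the window, 3 rose and 1 fell with CBD by the authors' deposited table. Srxn1 rose from 12.1 to 67.7 FPKM, 5.54-fold. It was the only gene of the window called in both comparisons, with a log2 fold of 2.47 with CBD and -0.75 with 4-OHT. Of the tested window genes 46.2% were called with 4-OHT and 20.7% with CBD, beside 44.1% and 26.2% of all tested genes. Commd7 rose from 12.1 to 22.8 FPKM, and Nrsn2, known from neurons, from 0.0283 to 3.90 FPKM. Asxl1, a chromatin regulator mutated in myeloid leukemia, fell from 21.5 to 9.52 FPKM. Each kept its direction against the other control column.

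The 22 expressed genes of the window had 5 calls among 21 tested with CBD, 4 higher and 1 lower, or 23.8%, against 21.7% of tested genes of the same kind over the genome. Of the 11 called with 4-OHT, 6 lay on the same side of the other control column, as did 1965 of 4464 such called genes over the genome. With CBD all 5 did, beside 1920 of 2023 over the genome.

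**Figure D4:**
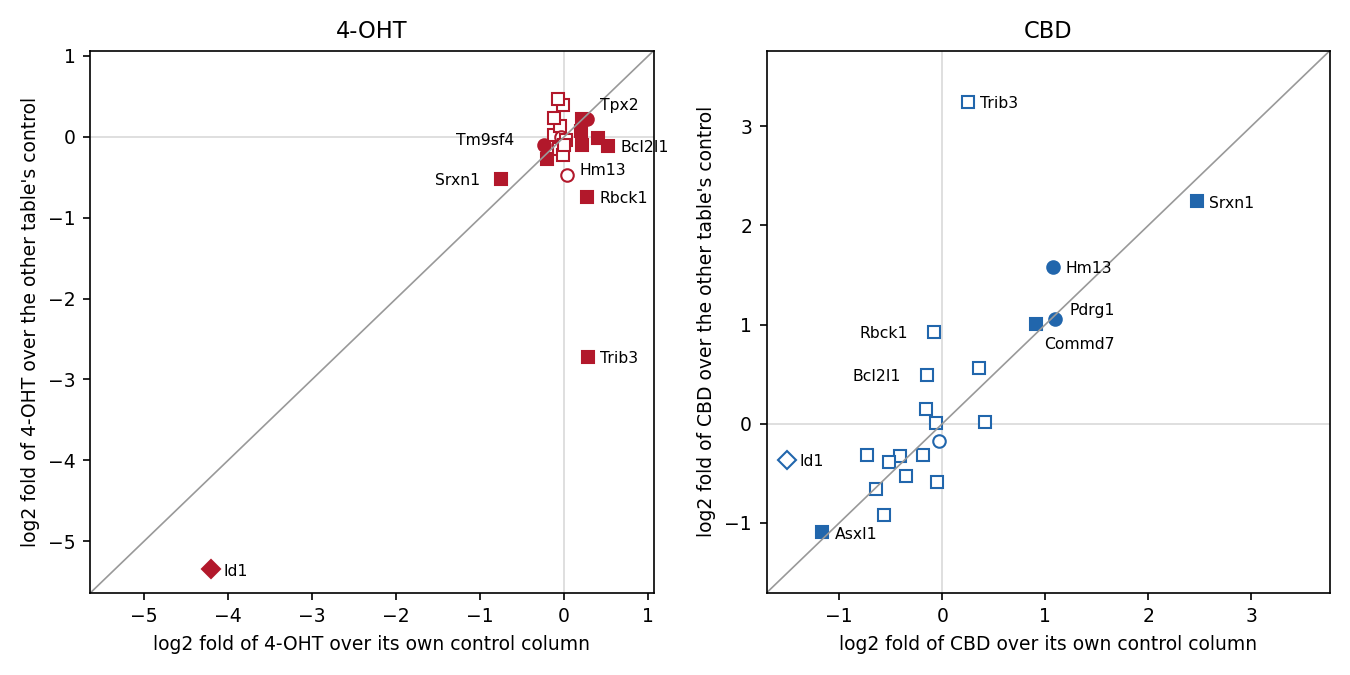
Log2 fold of each expressed window gene and Id1 against its own table's control (x axis) and against the other table's control (y axis), with 4-OHT and CBD in separate panels; circles are named neighbours, squares other genes, and filled marks were called. Points on the diagonal do not depend on the control column; Id1 stays low with 4-OHT against both (-4.21 and -5.35), while Trib3, Rbck1 and Bcl2l1 lie off the diagonal.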

How the data were processed

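RNA from 6 samples (3 groups of 2) was sequenced. Per the submitters' processing notes reads were aligned to mm9 by the authors with Bowtie 0.12.2 and compared with Cuffdiff; its version, its settings and the annotation used are not stated in these sources. The 2 deposited tables hold FPKM values computed by the authors, 1 per group, and the deposited p-value and q-value of the authors' test. Genes with status OK are called tested. The deposited log2 ratio column was not used for results.

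Log2 folds were computed with a pseudocount of 0.1 FPKM, and no test was added, since the tables hold no values per sample. The depth is unknown. The scripts were tested on simulated data. Gene positions come from the tables, and starts, which count from 0 there, were raised by 1. The window was 1 Mb to either side of Id1. Promoters came from RefSeq (GRCm38.p6), and transcript lengths, strands and overlaps from GENCODE vM21. Python 3.11.15, pandas 2.3.3, numpy 2.4.6 and matplotlib 3.10.9 were used.

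Members, gene lists and tests were chosen with earlier results of these data known. The text names the 9 members and Id1, genes of the window called in either comparison, and up to 3 called genes with the largest fold per related list and comparison. Mcts2, Defb25, Aurka, Cox4i1, Dusp11 and Tm9sf3 were named after their values were seen. Of the 15 names in the prefoldin list 14 were matched to the tables. Alternatives were other thresholds, windows, pseudocounts, control columns, centring and, added after seeing the data, subtraction of the length trend.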

Additional observations from a re-analysis of the deposited data

How the results depend on the processing

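No called fold of a member or of Id1 reversed direction under the alternatives run. The median log2 folds of the window lie near 0 and changed sign: with CBD from -0.04 to 0.49 with the other table's control, 0.36 in a window of 0.5 Mb and 0.02 in one of 2 Mb, and with 4-OHT from 0.0011 to values between -0.043 and -0.0024 under 4 alternatives. Of 47 folds of other named genes 17 did, each with 4-OHT and each from the CBD table's control column: Fam110a (-0.018), Tcf15 (-1.63), Rbck1 (-0.74), Trib3 (-2.72), Bcl2l1 (-0.11) and Kif3b (-0.10) near Id1, and among related genes Cox7a2l (-0.78), 3110056O03Rik (0.15), Tm9sf2 (0.59), Tm9sf1 (0.73), Pfdn5 (-0.21), Pfdn2 (0.53), Gem (-2.95), Rem2 (0.73), Styx (0.36), Dusp12 (0.12) and Ttll12 (0.63), all on the log2 scale. Dusp11, Aldoc, Gfap and the 4 spindle assembly genes that fell with 4-OHT are not among these 17. Their 4-OHT folds also changed sign from the CBD table's control column. Asking for a change of at least 2-fold besides the q threshold left 0 of the members higher and 0 lower with 4-OHT (1 and 1 as reported), and 1 higher and 0 lower in the window (9 and 3). A window of 0.5 Mb gave 5 higher and 1 lower with 4-OHT, and 3 higher and 0 lower with CBD (5 and 1 as reported). A window of 2 Mb gave 14 higher and 7 lower with 4-OHT and 8 higher with CBD. Of the 9 window genes higher with 4-OHT, 3 were also higher against the other table's control. The log2 fold of Id1 with 4-OHT was -3.24 with a pseudocount of 1 FPKM and -5.35 against the other control, and with CBD -0.37 against the other control. Of 90 alternative values for the members' folds 77 stayed within 1.5-fold, and the other 13 belong to the 5 low members. No paired analysis was possible because the tables hold 1 value per group, and for the same reason the replicate block and leaving out a replicate were not run. Without depth or replicates, a small fold such as that of Tm9sf4 rests on the deposited test alone.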

Other observations

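The control columns of the tables differed at some genes near Id1, and these differences were not tested. Trib3, which encodes a stress-induced pseudokinase, was at 260 FPKM in the control of the CBD table and 32.5 FPKM in that of the 4-OHT table, with 309 FPKM with CBD and 39.5 FPKM with 4-OHT. Of the 22 expressed genes of the window 3 differed between the control columns by over 1.5-fold: Trib3, Rbck1 (82.5 and 41.0 FPKM) and Bcl2l1 (31.0 and 19.9 FPKM). None of the 4 expressed members did.

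Of the 11 beta-defensin genes that lie before Rem1, 8 were listed at 0 in all 4 columns.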
